A study of Mus musculus with 96 samples.

Results

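A set of 10 genes of the spindle checkpoint and of the anaphase-promoting complex (APC/C) was followed through single cells of the mouse lung line C10: Bub1, Bub1b, Bub3, Mad2l1, Ttk, Cdc20, Ube2c, Ube2s, Pttg1 and Fzr1. They were taken by symbol, as named regulators of one pathway, and are 10 of the 40202 genes counted; all 10 were measured. The study prepared 96 libraries of 1 cell each by SMART-seq v4, a full-length cDNA method, in a workflow called nanoSPLITS that divides a cell's lysate between RNA and protein work. The 48 control libraries came from untreated C10 cells, and the other 48 from C10 cells given RO-3306, which is marketed to block the mitotic kinase CDK1, at 10 nM for 36 h as the labels give it. That dose is lower than is usual for the compound, and the files do not show whether CDK1 was blocked. Both groups grew in RPMI medium with serum and glutamine, no genetic change is named in either, and the labels call the line alveolar type II epithelial. The comparison asks how these transcripts differed between treated and untreated cells.

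The spindle checkpoint holds a cell in metaphase until every chromosome is attached to the spindle. Kinases at unattached kinetochores, among them Ttk (also called Mps1) and Bub1, start the assembly of an inhibitor made of Mad2l1, Bub1b (BubR1), Bub3 and Cdc20, and this inhibitor keeps the APC/C from acting. Once it is released, the APC/C, a ubiquitin ligase that works with the conjugating enzymes Ube2c and Ube2s, marks securin (Pttg1) and cyclin B for destruction, first with the activator Cdc20 and later with Fzr1 (Cdh1). Transcripts of most of these genes are known to peak late in the cell cycle, while the APC/C subunits are made throughout it.

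Promoters of such late genes often carry a cell cycle homology region (CHR) downstream of CCAAT boxes, so the promoter windows of RefSeq (GRCm38.p6, 250 bases before to 50 bases from the start) were searched on both strands for TTTGAA or TTCGAA (CHR) and for CCAAT. The letters TTCGAA read the same on both strands, and neither CHR form overlaps CCAAT in the windows below. All 10 genes matched an entry. A CHR was found for 7 of them and in 19.2% of the 32851 windows of all genes. CCAAT was found for 7 as well, and in 37.4% of all windows. A CHR with at least 2 CCAAT boxes was found for 5 genes, Bub1, Bub3, Ttk, Cdc20 and Ube2c, and in 2.31% of all windows. Their sequences are shown from 120 bases before to 30 bases from the start, because they share this arrangement although their levels went different ways below. Pttg1 is shown beside them as a gene with neither motif in its window. Matches are in capitals, 5′ to 3′ on the gene's strand, with ATTGG and TTCAAA the reverse-strand forms.
Ube2c (chr2:164769809-164769958, plus strand): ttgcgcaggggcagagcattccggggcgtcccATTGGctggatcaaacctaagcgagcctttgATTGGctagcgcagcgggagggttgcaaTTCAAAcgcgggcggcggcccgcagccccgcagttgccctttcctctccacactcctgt
Cdc20 (chr4:118437314-118437463, minus strand): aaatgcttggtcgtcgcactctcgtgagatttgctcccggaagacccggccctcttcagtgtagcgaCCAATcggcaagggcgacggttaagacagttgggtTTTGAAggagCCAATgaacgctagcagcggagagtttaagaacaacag
Bub1 (chr2:127831830-127831979, minus strand): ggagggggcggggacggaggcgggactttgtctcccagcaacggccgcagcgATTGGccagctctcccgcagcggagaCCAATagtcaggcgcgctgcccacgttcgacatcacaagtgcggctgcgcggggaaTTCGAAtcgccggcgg
Ttk (chr9:83834569-83834718, plus strand): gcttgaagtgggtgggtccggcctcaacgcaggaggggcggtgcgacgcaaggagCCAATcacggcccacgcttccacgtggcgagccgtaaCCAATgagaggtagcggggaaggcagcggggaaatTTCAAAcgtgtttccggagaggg
Bub3 (chr7:131560250-131560399, plus strand): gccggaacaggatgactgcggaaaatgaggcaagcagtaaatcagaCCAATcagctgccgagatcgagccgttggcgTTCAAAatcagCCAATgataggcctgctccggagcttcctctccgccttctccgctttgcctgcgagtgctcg
Pttg1 (chr11:43425952-43426101, minus strand): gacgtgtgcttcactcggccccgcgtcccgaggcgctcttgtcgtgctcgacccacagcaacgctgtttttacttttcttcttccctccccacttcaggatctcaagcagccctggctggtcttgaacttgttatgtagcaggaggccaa

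Counted from the first transcribed base as +1, the CHR began at -29 in Ube2c, -18 in Cdc20, -43 in Bub3, +8 in Ttk and +15 in Bub1. The CCAAT boxes of these 5 windows lay upstream of it, except that Cdc20 and Bub3 had 1 on either side. Ube2c had 6 matches to CCAAT in its full window, the most of the 10 genes. Bub1b had 2 CHR matches and 1 CCAAT, Ube2s a CHR alone at -162, Fzr1 a CCAAT alone at -79, and Mad2l1, like Pttg1, neither. A match is a description of letters, and none of the libraries measured binding.

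A minimum of 50000 counts and 1000 genes per cell left 29 control cells (10, 8, 6 and 5 in the sets lettered A to D in the titles) and 37 RO-3306 cells (10, 10, 11 and 6). Totals of kept cells ran from 59979 to 6457210 counts in control (median 1753430) and from 295005 to 5321880 in RO-3306 (median 2234310). The labels name no separate cultures, so each treatment is 1 sample with no replicate check. No test was made, and every interval is at the 95% level. Those of levels cover only the counting of reads, in which PCR copies count as separate reads. Those of shares treat each cell as an independent draw, and none covers differences between cultures. Levels are counts summed over cells scaled to a total of 1000000 (CPM), and ratios are log2 of RO-3306 over control with 1 CPM added to both. A gene is called 2-fold changed at a log2 ratio of 1 or more, or -1 or less. All genes with a mean of 5 CPM or more, 9374 in number, had a median log2 ratio of -0.22 with quartiles of -0.98 and 0.43. TMM or DESeq2 scaling would raise that median by 0.21 or 0.23, so smaller ratios have no settled sign. Of 7 markers of alveolar type II cells, Sftpa1, Sftpc, Sftpd and Slc34a2 were at 0 in every kept cell, and Sftpb had a count in 1 RO-3306 cell. Abca3 was at 9.38 CPM in control (a count in 7 cells) and 5.21 CPM in RO-3306 (12 cells). Lamp3 was at 0.227 CPM (8 cells) and 0.108 CPM (7 cells). The 7 markers had a summed level of 9.61 CPM in control (0 to 109 per cell) and of 5.40 CPM (0 to 124) in RO-3306. The 6 epithelial markers had one of 1.78 CPM in control (0 to 396 per cell) and of 0.978 CPM (0 to 48.2) in RO-3306. The 6 mesenchymal markers, none of which was at 0, had one of 5579 CPM in control (1329 to 11354 per cell) and of 2523 CPM (1263 to 13886) in RO-3306. The part of these differences in the results below was not tested.

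In RO-3306 cells, 6 of the 10 genes were higher and 4 lower. The higher ones were the 2 ubiquitin-conjugating enzymes Ube2c and Ube2s, securin (Pttg1), the kinase Bub1, Cdc20 and Bub3, and the lower ones were Bub1b, Ttk, Fzr1 and Mad2l1. Added together, the 10 genes made up 2142 CPM of the control counts and 2904 CPM of the RO-3306 counts, a log2 ratio of 0.44. Their median log2 ratio was 0.13, against -0.22 for all genes. A 2-fold higher level was reached by 1 gene, Ube2s, where 12.2% of all genes reached it, and a 2-fold lower level by 1 gene, Bub1b, where 24.2% of all genes did. Shares of 1 in 10 are near or below that background, so neither count sets the genes apart. Ube2c, Ube2s and Pttg1 were higher in each of the 4 lettered sets, as 13.1% of all genes were, and Bub1b was lower in each, as 10.3% were. The other 6 changed sign between sets.

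**Figure D1:**
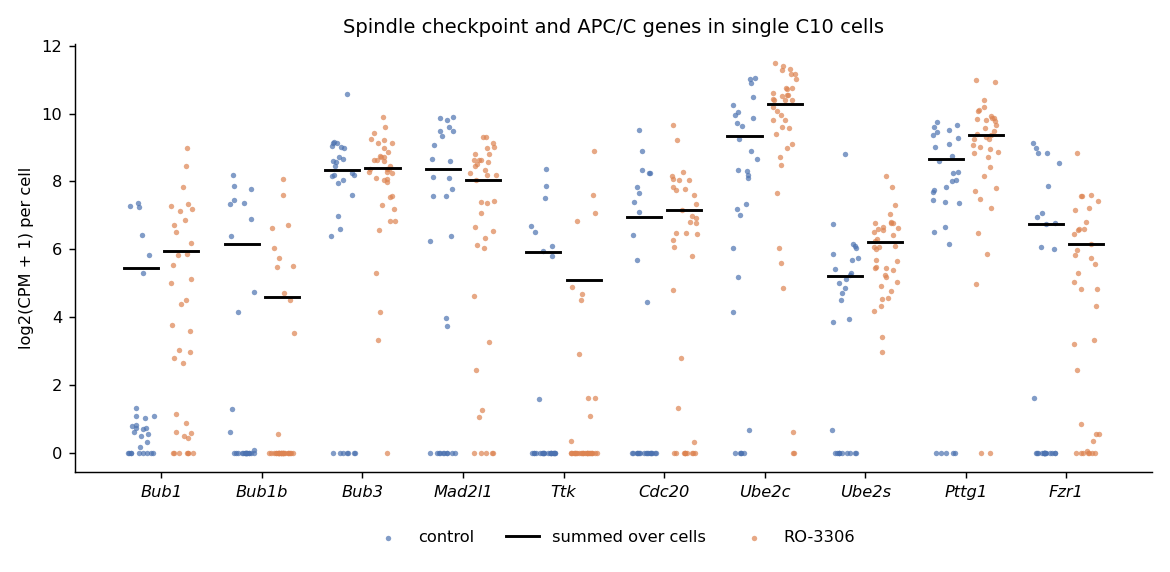
Level of each of the 10 genes in single cells, as log2(CPM + 1), for 29 control and 37 RO-3306 cells. Each point is 1 cell, and the bar is the level summed over the cells of the group. The RO-3306 bar lies above control for Ube2c (1246 against 647 CPM), Ube2s and Pttg1, and below it for Bub1b (23.1 against 70.2 CPM).

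**Figure D2:**
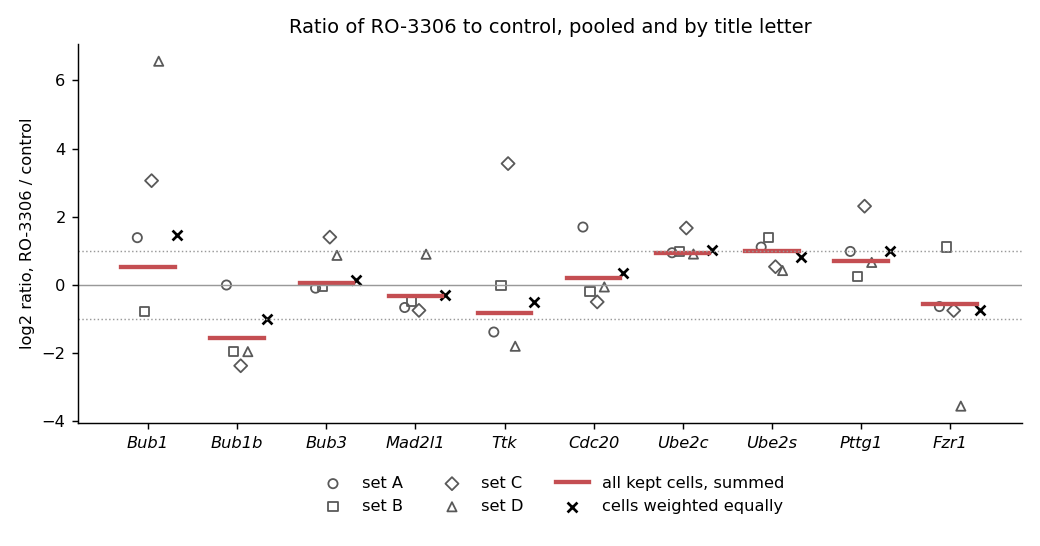
Log2 ratio of RO-3306 over control per gene. Red bars are all kept cells summed, open symbols the 4 lettered sets, and crosses the ratio with cells weighted equally; dotted lines mark 2-fold. Ube2c, Ube2s and Pttg1 are above 0 in every set, while Bub1, Ttk and Fzr1 spread over several log2 units. With cells weighted equally within sets, which is not drawn, Ube2s was at -0.04 in set C.

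Among the checkpoint kinases, the summed level was higher for Bub1 and lower for Ttk, and neither sign held in all 4 sets. Bub1 phosphorylates histone H2A at kinetochores and recruits other checkpoint proteins there (GRCm39, chromosome 2, 127642117 to 127673790, minus strand). Its per-cell level ran from 0 to 165 CPM in control, with a median of 0.631, and from 0 to 510 CPM in RO-3306, with a median of 12.6. Most control cells therefore held at most a trace, and the ranges overlap. Bub1 was above 50 CPM in 5 of 29 control cells and in 13 of 37 RO-3306 cells. Summed, it was at 42.3 CPM (40.7 to 43.9) in control and 61.1 CPM (59.5 to 62.7) in RO-3306, which is 0.52 on the log2 scale. The control level came almost wholly from sets A (36.3 CPM) and B (73.0 CPM), since sets C and D held 0.912 and 0.246 CPM. The log2 ratio was 1.38, -0.79, 3.06 and 6.57 in sets A to D. Its pooled value was -0.12 without set D and 1.53 without set B, and 1.46 when cells were weighted equally. The direction of the summed Bub1 level therefore rests on set D.

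Ttk, the kinase that starts checkpoint signalling (chromosome 9, 83716704 to 83754443, plus strand), was at 0 in the median cell of both groups. It reached 329 CPM in control cell B1 and 472 CPM in RO-3306 cell B5, with any count in 9 of 29 cells of the former group and 12 of 37 of the latter. Its summed level was 59.1 CPM (57.3 to 61.0) in control and 32.9 CPM (31.8 to 34.1) in RO-3306, a log2 ratio of -0.83. A single cell, B5, held 64.1% of the RO-3306 counts. With the cell of the largest count left out of each group the ratio was -1.89. In the lettered sets it was -1.39, -0.03, 3.56 and -1.81, so set C went the other way. The size of the Ttk difference therefore rests on few cells.

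Bub1b, the BubR1 pseudokinase that binds and inhibits Cdc20-bound APC/C (chromosome 2, 118428684 to 118472073, plus strand), had the lowest ratio of the 10. Its median per-cell level was 0 in both groups, with maxima of 292 (control) and 271 CPM (RO-3306). A count was present in 13 of 29 and 12 of 37 cells, and among these the median level was 118 (control) and 48.6 CPM (RO-3306). Summed over cells, Bub1b was at 70.2 CPM (68.2 to 72.2) in control and 23.1 CPM (22.1 to 24.1) in RO-3306, for a log2 ratio of -1.56. The lettered sets gave -0.01, -1.96, -2.38 and -1.97, and the sign in set A is not settled: it was 0.22 with DESeq2 size factors and 0.24 with cells weighted equally. The pooled value ran from -2.38 to -1.005 over 15 alternatives, all below 0. The pooled difference thus lay in sets B to D. Both the share of kept cells with a count (44.8% and 32.4%) and the level among them were lower in RO-3306. Their parts in the difference were not separated, and the intervals of the shares at equal depth overlapped.

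Bub3, the adaptor that brings Bub1 and Bub1b to kinetochores (chromosome 7, 131162081 to 131173624, plus strand), was among the abundant members. Per cell it ran from 0 to 1526 CPM with a median of 288 in control, and from 0 to 945 CPM with a median of 329 in RO-3306. The summed levels of 321 CPM (317 to 326) and 336 CPM (332 to 340) gave a log2 ratio of 0.06, smaller than the scaling shift. Sets A and B were slightly below 0 (-0.10 and -0.04) and sets C and D above it (1.40 and 0.86). The pooled ratio was -0.02 without set D, so no direction is given.

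Mad2l1, the Mad2 protein that closes around Cdc20 (chromosome 6, 66512205 to 66518091, plus strand), ran from 0 to 946 CPM with a median of 187 in control, and from 0 to 635 CPM with a median of 170 in RO-3306. Its summed level was 331 CPM (327 to 336) in control and 260 CPM (257 to 264) in RO-3306, a log2 ratio of -0.35. It was lower in sets A, B and C (-0.67, -0.49 and -0.75) and higher in set D (0.90). It was nonetheless found in more RO-3306 cells, with a count in 32 of 37 against 19 of 29 control cells.

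Cdc20 and Fzr1, the alternative activators of the APC/C, both had a count in a larger share of RO-3306 cells. Cdc20 (chromosome 4, 118290098 to 118294540, minus strand) was at 0 in the median control cell and at 88.3 CPM in the median RO-3306 cell, with maxima of 727 and 817 CPM. A count was present in 12 of 29 and 27 of 37 cells, and among these the median was lower in RO-3306, at 125 CPM against 214 CPM. The summed levels of 123 CPM (121 to 126) and 141 CPM (139 to 144) gave a log2 ratio of 0.19. That ratio came from set A (1.69), since sets B, C and D gave -0.20, -0.51 and -0.07, and without set A it was -0.30. The Cdc20 span shares 53 nt with Elovl1, and reads over both are left uncounted by the counting tool's default.

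Fzr1, which keeps the APC/C active through late mitosis and G1 (chromosome 10, 81202713 to 81214204, minus strand), was likewise at 0 in the median control cell and at 31.7 CPM in the median RO-3306 cell. Its maxima were 563 and 457 CPM. It had a count in 13 of 29 control cells, at a median of 133 CPM among them, and in 30 of 37 RO-3306 cells, at a median of 54.4 CPM. Some of these counts were traces. Levels above 50 CPM were reached by 12 of 29 control and 16 of 37 RO-3306 cells for Fzr1, and by 11 and 23 for Cdc20. The summed Fzr1 level was lower in RO-3306, at 70.5 CPM (68.8 to 72.3) against 106 CPM (103 to 108), a log2 ratio of -0.57. In sets A to D it was -0.64, 1.11, -0.76 and -3.57. Without set D it was 0.07 and without set B -1.34, so the direction of the sum rests on set D. With cells thinned to equal depth, Fzr1 was the 1 member with a lower ratio and a share of cells at least 20 points higher, a combination that 7.03% of all genes had. At full depth Mad2l1 had it too, with a share 20.97 points higher.

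The ubiquitin-conjugating enzymes were both higher in RO-3306. Ube2c starts ubiquitin chains on APC/C substrates (chromosome 2, 164611849 to 164614822, plus strand) and was the most abundant of the 10 genes. Per cell it ran from 0 to 2119 CPM with a median of 313 in control, and from 0 to 2850 CPM with a median of 1180 in RO-3306. Levels above 500 CPM were reached by 11 of 29 control and 28 of 37 RO-3306 cells, though the ranges overlap. Summed, Ube2c was at 647 CPM (641 to 653) in control and 1246 CPM (1239 to 1254) in RO-3306, for a log2 ratio of 0.94. The sets gave 0.94, 0.97, 1.67 and 0.90, and the pooled value lay between 0.65 and 1.18 over 15 alternatives. Its share of the summed level of the 10 genes was 30.2% in control and 42.9% in RO-3306.

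Ube2s, which extends those chains (chromosome 7, 4811013 to 4815339, minus strand), ran from 0 to 447 CPM with a median of 25 in control and from 6.78 to 286 CPM with a median of 65.8 in RO-3306. It was the only member found in every kept RO-3306 cell, against 19 of 29 control cells. The summed levels were 36.0 CPM (34.6 to 37.5) and 73.1 CPM (71.4 to 74.9), a log2 ratio of 1.001, just past the 2-fold mark. The lettered sets gave 1.11, 1.38, 0.53 and 0.42, and set C gave -0.04 with cells weighted equally. Fractional counts, which arise where a read also fits another place, occurred in 11 control and 23 RO-3306 cells. All 10 genes had them in some cells of both groups, among them Ube2c in 10 control and 18 RO-3306 cells. The part of each level they make up was not measured, so the Ube2s level is uncertain to an unknown extent.

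Pttg1, securin, holds separase inactive until the APC/C removes it (chromosome 11, 43311071 to 43318290, minus strand). Its per-cell level ran from 0 to 859 CPM with a median of 257 in control and from 0 to 2025 CPM with a median of 613 in RO-3306. It exceeded 500 CPM in 9 of 29 and 22 of 37 cells. The summed level was 406 CPM (401 to 411) in control and 659 CPM (654 to 664) in RO-3306, for a log2 ratio of 0.70. The sets gave 0.98, 0.25, 2.31 and 0.65. With cells weighted equally Ube2c and Pttg1 were the 2 members with the same sign in all 4 sets.

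Levels of different genes were set side by side per kilobase of mRNA. This order is approximate, since reads over introns were counted too and their part differs between genes. Control cells had 669 CPM per kb of Ube2c, 548 of Pttg1, 192 of Mad2l1, 145 of Bub3, 68.8 of Cdc20, 34.5 of Fzr1, 29.1 of Ube2s, 20.6 of Ttk, 19.1 of Bub1b and 12.4 of Bub1. In RO-3306 cells the first 5 places went to Ube2c (1289 CPM per kb), Pttg1 (890), Bub3 (151), Mad2l1 (151) and Cdc20 (78.7). They was followed by Ube2s (59.1), Fzr1 (23.1), Bub1 (17.9), Ttk (11.5) and Bub1b (6.29). Ube2c and Pttg1 thus stood well above the rest in both groups, Bub3 and Mad2l1 were level in RO-3306, and Bub1b took the last place there. Lengths came from an older transcript set, and the neighbours Ttk and Bub1b in control differed by less than either gene's range over the 4 sets.

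To compare shares of cells, each cell was thinned to 639000 reads, which left 25 control and 34 RO-3306 cells and left out 4 and 3. At that depth Ube2s was found in 60.0% of control cells (38.7% to 78.9%) and 100% of RO-3306 cells (89.7% to 100%). Bub1 was found in 36.0% (18% to 57.5%) and 73.5% (55.6% to 87.1%), Cdc20 in 48% (27.8% to 68.7%) and 73.5% (55.6% to 87.1%), and Fzr1 in 44% (24.4% to 65.1%) and 73.5% (55.6% to 87.1%). Only the intervals of Ube2s lie apart. These 4 genes had a share at least 20 points higher in RO-3306, as 27.4% of all genes did, and no member had one at least 20 points lower, as 1.98% did, although without set A the Bub1b share differed by -23.1 points. The Bub1 difference of 37.5 points was 21.5 with another random draw and 12.1 at full depth, since traces of 1 or a few reads count as present. The Cdc20 difference of 25.5 points was 6.73 without set A and 19.6 with at least 5 counts required, so it does not hold as a 20-point difference there. With 5 counts required, Bub1 was found in 6 of 25 control and 19 of 34 RO-3306 cells.

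Bub3, Mad2l1, Ube2c and Pttg1 were already found in 72% to 84% of control cells and reached 88.2% to 97.1% in RO-3306. Bub1b (40% and 32.4%) and Ttk (36.0% and 26.5%) were the 2 members found in a smaller share of RO-3306 cells at equal depth. Neither direction is settled, since without set B the difference was 6.59 points for Bub1b and 0.471 for Ttk, both higher in RO-3306, and at full depth Ttk was 1.40 points higher. Over the 10 genes the median difference was 16.6 points, against 8.94 points for all genes. RO-3306 cells also had more genes with a count at the same depth, with medians of 4576 in control and 5958 in RO-3306. The part of that in these shares was not tested.

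**Figure D3:**
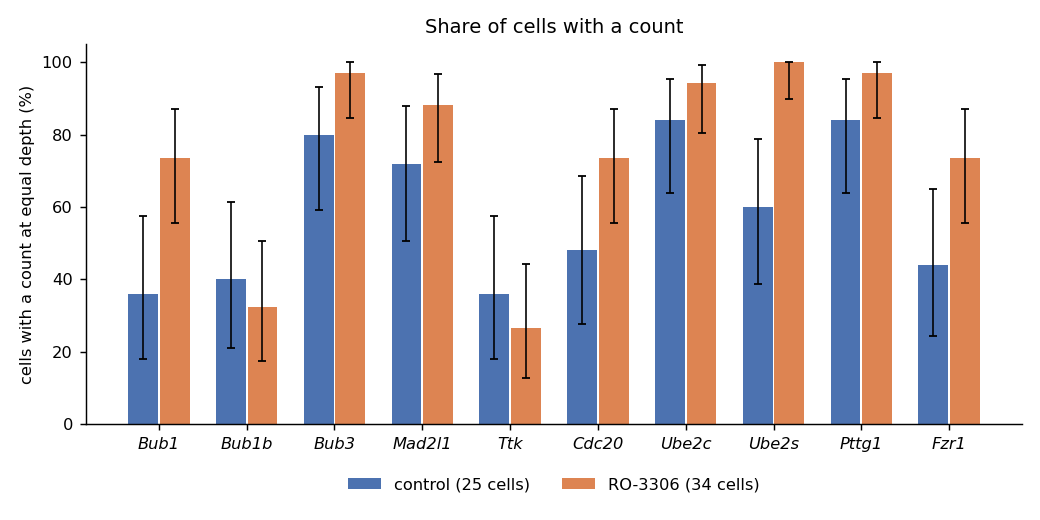
Share of cells with a count of each gene after thinning to 639000 reads, for 25 control and 34 RO-3306 cells; bars start at 0 and whiskers are exact binomial 95% intervals. Ube2s goes from 60.0% to 100%, while Bub1b and Ttk have a lower share in RO-3306 here, a direction that turned for both without set B and for Ttk at full depth.

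Within single cells, the number of the 10 genes with a count at equal depth had a median of 6 in control (quartiles 5 and 7, range 1 to 10) and 8 in RO-3306 (quartiles 7 and 9, range 2 to 10). At least 8 were found in 5 of 25 control cells, or 20% (6.83% to 40.7%), and in 18 of 34 RO-3306 cells, or 52.9% (35.1% to 70.2%). At most 3 were found in 5 control cells and in 1 RO-3306 cell. The summed level of the 10 genes had a median of 1884 CPM per control cell (535 to 5146) and 2822 CPM per RO-3306 cell (269 to 7044), so both groups held cells with little and cells with much. Across cells, the number found rose with the number of genes per cell, with Spearman correlations of 0.65 over 25 control and 0.60 over 34 RO-3306 cells. The summed level did so less, at 0.27 and -0.03.

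**Figure D4:**
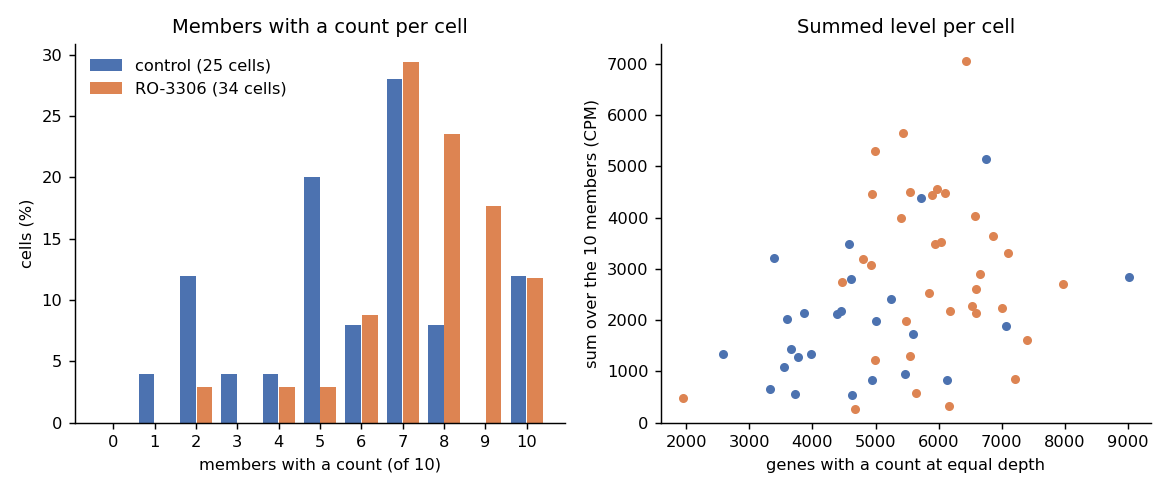
Left, share of cells by how many of the 10 genes had a count at equal depth; right, summed CPM of the 10 genes against genes with a count, 1 point per cell. Blue is control (25 cells) and orange RO-3306 (34 cells). The medians are 6 and 8 genes, and the summed level spans 535 to 5146 CPM in control and 269 to 7044 CPM in RO-3306.

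The genes varied together to differing degrees. Over the 45 pairs the median Spearman correlation across cells was 0.22 in control (40 pairs above 0) and 0.17 in RO-3306 (38 above 0). Points share depth by thinning, and cells of a group share their treatment. Ube2c and Pttg1 went together most closely in RO-3306, with 0.80 against 0.44 in control, followed by Bub3 with Pttg1 (0.66 against 0.23) and Bub3 with Ube2c (0.61 against 0.39). Bub1 and Ttk had the highest correlation in control, 0.68, and -0.05 in RO-3306. Bub1b, although lower in RO-3306, followed the mean of the other 9 genes in both groups, at 0.67 and 0.52, as did Pttg1 at 0.71 and 0.57. In control, Mad2l1 (-0.03) and Fzr1 (-0.04) followed it least, and in RO-3306 Ube2s (0.15) and Mad2l1 (0.18) did.

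Candidates were 5353 other genes with a count in at least 25% of cells of each group and a mean of at least 20 CPM. Those most like the mean of the 10 were taken by the lower of the control and RO-3306 correlations. They were Aurka (0.62 in control and 0.61 in RO-3306), Tmem138 (0.57 and 0.68), Plk1 (0.55 and 0.54), Racgap1 (0.61 and 0.53), Mtbp (0.61 and 0.52), Sgo1 (0.52 and 0.54), Cdca5 (0.49 and 0.49), Cdkn3 (0.49 and 0.54), Ccna2 (0.49 and 0.59) and Ggcx (0.47 and 0.47). Aurka, Plk1 and Ccna2 encode mitotic kinases and a cyclin, and Sgo1 and Cdca5 protect or stabilise cohesin. Over all candidates, the correlation with the mean of the 10 had a median of 0.16 in control and 0.08 in RO-3306. Its 95th percentile was 0.50 in control and 0.37 in RO-3306. Cdca5, Cdkn3, Ccna2 and Ggcx lay below the control percentile.

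The neighbours of the 10 genes in the pathway were read from lists of genes, whose 2-fold counts can be set beside the 12.2% (higher) and 24.2% (lower) of all genes. Of 11 other checkpoint genes, 3 were higher and 8 lower, with a median of -0.40, 1 of them 2-fold higher and 2 that were 2-fold lower. Mad2l1bp, the p31comet protein that takes Mad2 off its partners, had the highest ratio at 1.79 (27.3 to 97.0 CPM), and Spdl1, which brings dynein to kinetochores, the lowest at -1.65 (80.1 to 24.8 CPM). The next were Kntc1 at 0.23 and Knl1, the scaffold on which Bub1 docks, at -1.55. Signs differed between sets for each of these 4 genes.

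Of the 14 APC/C core subunits, Cdc16 had no count in any kept cell. The span of Gm46032 covers all of it, and the counting tool's default drops reads over both. Among the other 13, 6 were higher and 7 lower, with a median of -0.15 and 4 of them 2-fold lower. Anapc10 (50.3 to 80.4 CPM, 0.67) and Anapc11, the RING subunit (346 to 517 CPM, 0.58), were higher in all 4 sets, although Anapc10 was at 0.01 in set C. Anapc1, the largest subunit (55.4 to 17.7 CPM, -1.59), and Anapc4 (174 to 60.3 CPM, -1.51) were lower in all 4. Of 5 inhibitors and antagonists of the APC/C, 3 reached 5 CPM and all 3 were lower, 2 of them 2-fold: Fbxo5, the inhibitor Emi1 (108 to 58.7 CPM, -0.87, lower in all 4 sets), Usp37 (-1.25) and Cdc14b (-1.32). Usp37 was higher in sets C and D (1.835 and 4.91), and Cdc14b in set C (4.14). With cells weighted equally they were at -0.54 and -0.77.

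Of 10 separase, cohesin and shugoshin genes, 2 were higher and 8 lower, with a median of -0.83 and 5 of them 2-fold lower. Sgo1, which guards centromeric cohesin, had 0.54 and Cdca5 (sororin) 0.01, while the cohesin subunits Smc1a (139 to 25.2 CPM) and Stag1 had -2.42 and -2.08. Sgo1 and Cdca5 changed sign between sets, while Smc1a and Stag1 were lower in all 4. The Smc1a ratio in set A was only -0.12, smaller than the scaling shift. Of 15 APC/C substrates, 7 were higher and 8 lower, with a median of -0.14 and 3 of them 2-fold lower. Cyclin Ccnb2 (240 to 414 CPM, 0.78) and the kinase Aurka (147 to 238 CPM, 0.69) were highest, and Cdc6, a licensing factor of replication (36.7 to 6.20 CPM, -2.39), and Tpx2 (202 to 81.9 CPM, -1.29) were lowest. Ccnb2 and Cdc6 kept their sign in all 4 sets. Aurka was lower in set B (-0.20). Tpx2 was higher in sets A and C (0.22 and 3.15), and at -0.49 with cells weighted equally. With the median ratio of genes of like mRNA length subtracted, the median of the 10 members was 0.21. Bub1b was then at -1.01, Ube2c at 0.65, Pttg1 at 0.46, Ube2s at 0.82, Ttk at -0.52, Fzr1 at -0.24 and Cdc20 at 0.08, all nearer 0. Bub1 (0.97), Bub3 (0.34) and Mad2l1 (-0.39) moved further from 0. Pttg1, Ube2c and Ube2s had the shortest mRNAs of the 10 (741, 967 and 1238 nt), and Bub1b and Bub1 the longest (3668 and 3421 nt). The part of length in the ratios was not tested.

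**Figure D5:**
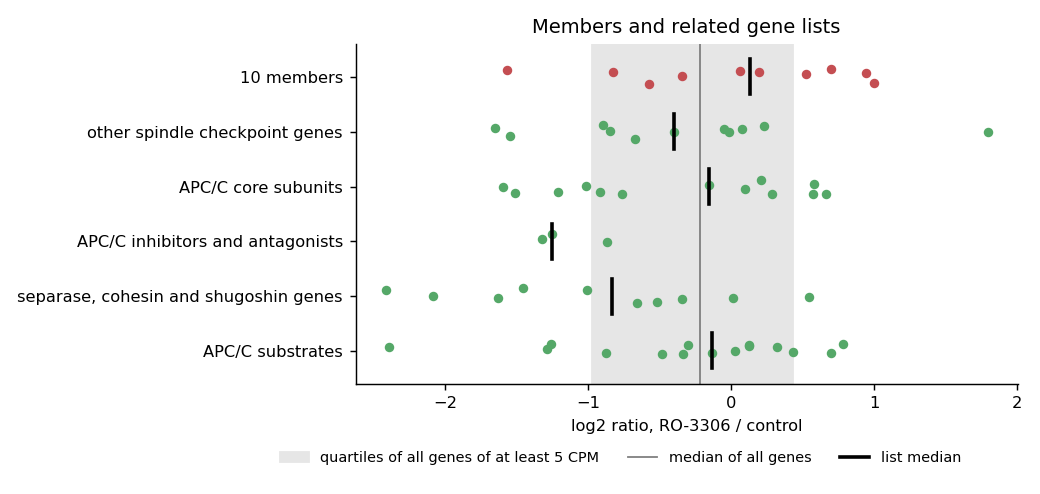
Log2 ratio of RO-3306 over control for the 10 genes and for 5 lists of related genes, 1 point per gene of at least 5 CPM; black ticks are list medians, the grey line the median of all genes (-0.22) and the band their quartiles (-0.98 to 0.43). The 10 members have a median of 0.13, and separase, cohesin and shugoshin genes one of -0.83.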

How the data were processed

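Single-cell RNA-seq libraries of C10 cells were analysed from the authors' deposited tables of expected counts per gene, 1 per library. Per the file headers, the authors counted reads with featureCounts 2.0.3 over whole RefSeq gene spans of GRCm39, introns included, splitting reads placed at several sites into fractions, with no strand option. Reads of a gene and of an antisense partner therefore cannot be told apart. STAR and FastQC are named in the submitters' processing notes, and their versions are not given in the sources used here. SMART-seq v4 adds no molecular identifiers, and PCR copies of a molecule were counted as separate reads.

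Groups came from the labelled treatment. With 1 sample per treatment no test was made. Counts were summed over kept cells and scaled to CPM. Sums have exact Poisson and shares exact Clopper-Pearson intervals at 95%. Fractional counts, over 1e-06 from a whole number, were rounded for intervals, thinning and scaling factors. The pooled ratio was tested on simulated data, with independent cells and the same spread set for every gene. The Poisson interval was tested only on simulated Poisson counts, with no spread between cells. Thinning, shares of cells, correlations, length correction and motif searches were not tested there. No 2 kept libraries were identical. mRNA lengths were taken by symbol from principal transcripts of GENCODE M21, an older assembly, and promoters from RefSeq. No doublet caller was run on singly sorted cells.

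The members and lists were chosen with earlier results of these data known. All 10 members are named. Of each related list, the 2 highest and 2 lowest ratios among genes of at least 5 CPM are named, and 10 genes most like the members over cells. Python 3.11.15, numpy 2.4.6, pandas 2.3.3, scipy 1.17.1 and matplotlib 3.10.9 were used. TMM factors (edgeR 4.0.16) and size factors (DESeq2 1.42.0) in R 4.3.3 served as alternative scalings only. Other alternatives changed the cell filter, pseudocount, weighting of cells, depth, lettered sets and length.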

Additional observations from a re-analysis of the deposited data

Results flagged for a closer look

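Bub1b and Ube2c gave a signal in libraries that the cell filter left out, above that in the left-out control libraries. The 11 left-out RO-3306 libraries held 57.6 CPM of Bub1b (44.7 to 73.2), from 67 counts that all lay in library C12, while the 19 left-out control libraries held 0 counts, where 3 counts of their total would be 8.79 CPM and the exact interval reaches 10.8 CPM. Ube2c was at 903 CPM (849 to 959) in the left-out RO-3306 libraries, with 936 of 1050 counts in library D4, against 17.6 CPM (6.45 to 38.3) in the left-out control libraries. Each value rests mainly on 1 library, and the left-out libraries held 341166 counts in control and 1162600 in RO-3306.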

How the results depend on the processing

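No paired analysis was possible because the title numbers are not said to pair cells and the results come from no test. The median log2 ratio of the 10 genes, 0.13, was 0.34 with TMM factors, 0.36 with DESeq2 size factors, 0.25 with cells weighted equally, 0.26 with cells thinned before summing and 0.21 after length correction, and with 1 lettered set left out it ran from -0.051 (without set A) to 0.37 (without set B). The 2-fold lower count of 1 was 2 without the cell of largest count, and 1 to 3 (3 without set B) with a set left out. The 2-fold higher count of 1 was 2 with TMM or DESeq2 factors, with cells weighted equally or without the cell of largest count, 4 with thinning, and 0 with a pseudocount of 5 CPM or length correction. With a set left out it was 0 (without set A) to 3 (without set B). The 4 genes with the same sign in all sets were 2 with cells weighted equally; with DESeq2 factors there were again 4, with Bub3 in place of Bub1b. The 4 genes found in a share of cells at least 20 points higher were 3 with 5 counts required and 5 at full depth or without set B. Of 150 recomputed ratios of single genes, 57 moved within counting limits and 93 beyond. The sign changed in 4, for Bub1, Bub3 and Fzr1 without set D and Cdc20 without set A. The other 6 genes kept their sign in all 15 alternatives. Counts of few cells limit Bub1b, Ttk and Bub1, and set D holds 5 control cells.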
